A study of Bos taurus with 47 samples.

Results

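Blastocyst-derived cells made by somatic cell nuclear transfer (scNT) were compared with blastocyst-derived cells made by in vitro fertilization (IVF) in cattle, with 4 RNA sequencing libraries in each group. The comparison covered 12390 of the 20526 genes in the deposited table, namely all genes with a normalized count of at least 10 in at least 4 of these 8 libraries. The 8 libraries belong to a series of 47 in 12 groups, which also holds 2-cell, 8-cell, morula and blastocyst embryos of both methods, MII oocytes and fibroblasts. Per the labels, an embryo library came from a pool of 20 embryos, and the stages were sampled on days 2, 3, 6 and 8. Their extraction protocol speaks of 3 pools per stage where most groups have 4 libraries, so whether each embryo library is a separate pool is not settled by the labels. For the scNT groups, the donor nuclei came from fibroblasts at passages 4 to 5, grown from the ear of a Brahma Spanish cross bull and held in low serum for 24 hr before transfer into oocytes whose own chromosomes had been removed. For the IVF groups, MII oocytes were fertilized with semen of a Holstein bull. IVF zygotes were cultured on a layer of bovine cumulus cells in a medium of synthetic oviduct fluid, and the scNT protocol also prepared cumulus cells for embryo culture. No transgene, drug or gene deletion is named for either group. How the cells were grown out of the blastocysts, how many blastocysts gave each library and how many passages the cells went through are not stated in the labels.

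In scNT, the cytoplasm of the oocyte resets the gene activity of a differentiated nucleus to that of an embryo, a process called reprogramming that is often incomplete. In IVF, the embryo starts from the genomes of an egg and a sperm. By the blastocyst stage the embryo has formed an outer trophectoderm, which contributes to the placenta, and an inner cell mass, which forms the fetus, and cells that grow out of a blastocyst in culture can come from either. All scNT nuclei carried the genome of a bull, whereas each IVF embryo was a new combination of a cow's and another bull's genomes. Production method, breed, sex and nuclear genotype therefore cannot be told apart in this comparison. These were bulk libraries, in which fewer cells of a type and less RNA per cell cannot be told apart.

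The identifiers of the genes were not paired with gene names in the files, and 0 of the 20526 matched the reference table used here. The identity of the derived cells could therefore not be checked against markers of pluripotent, trophectoderm, primitive endoderm, fibroblast or cumulus cells, and genes are described by their behaviour across the series. The scNT derived-cell libraries held 7590056 to 10318674 reads and the IVF ones 7858754 to 9342097. The number of genes at 10 or more averaged 12180 ± 67.6 in scNT and 12441 ± 137 in IVF derived cells (SD, n = 4 each; two-sided exact permutation p = 0.0286, the smallest that 4 against 4 libraries can give, adjusted p = 0.0857 over 3 library measures). Read totals had an exact permutation p of 0.371 (adjusted p = 0.371). The share of all values taken by the 100 highest genes was 29.1% ± 1.00 in scNT and 30.7% ± 1.24 in IVF derived cells (SD, n = 4 each; exact permutation p = 0.114, adjusted p = 0.171). The numbers of genes at 10 or more did not overlap, with 12116 to 12257 in scNT and 12358 to 12645 in IVF libraries. None of the 3 measures reached an adjusted p under 0.05. A single measure at the smallest exact p could not reach it over 3 measures, so this does not show that the libraries were alike.

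The libraries of the 2 methods were alike over most genes, and a second division split the IVF libraries, with scNT replicates 2 and 4 spread along it. Pearson's r on the log2 scale was 0.947 to 0.976 between scNT libraries, 0.945 to 0.978 between IVF libraries and 0.925 to 0.959 between the methods. The first principal component, with 30.4% of the variance, ran from -44.8 to -17.7 in the scNT libraries and from 22.7 to 38.5 in the IVF libraries, so the 2 groups did not overlap along it. The second component, with 26.6%, split the IVF libraries into pairs, with scores of 29.5 and 34.6 for replicates 1 and 2 and -29.4 and -33.3 for replicates 3 and 4. Along the same axis scNT replicate 2 scored 31.1 and scNT replicate 4 scored -27.0. The scNT replicates 1 and 3 scored 0.23 and -5.81, between the IVF pairs, so the scNT libraries did not form the same pairs. The labels name no batch that matches this split, and its part in the comparison was not tested. The median standard deviation of a gene between libraries was 0.275 on the log2 scale in scNT and 0.258 in IVF derived cells, within the 0.205 to 0.470 seen over all 12 groups. Without scNT replicate 2 the scNT value was 0.188.

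**Figure D1:**
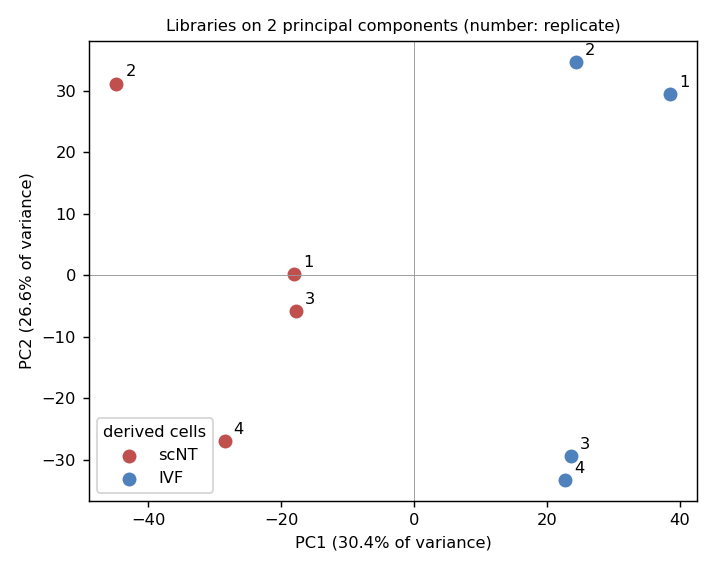
Scores of the 8 blastocyst-derived cell libraries on the first and second principal components of log2(normalized count + 1), with points coloured by method and numbered by replicate. The scNT libraries lie at negative and the IVF libraries at positive values of the first component, and IVF replicates 1 and 2 lie apart from IVF replicates 3 and 4 on the second.

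Of the 12390 genes, 166 (1.34%) differed between scNT and IVF derived cells. Higher levels in scNT derived cells were measured for 79 genes (0.638%) and lower levels for 87 (0.702%), by limma on log2(normalized count + 1) with a Benjamini-Hochberg adjusted p under 0.05. The higher genes had a median log2 difference of 1.11 and the lower ones of -1.44. In all, 43 higher and 62 lower genes differed at least 2-fold, and 19 higher and 32 lower genes at least 4-fold. In all 166 genes the scNT and IVF libraries did not overlap, a pattern found in 539 genes (4.35%) that were higher and 515 (4.16%) that were lower in scNT derived cells over the whole table. The median difference of all 12390 genes was 0.00, which the scaling of the deposited values sets near 0, so a shift of one group as a whole could not be measured. Nothing in the labels ties a library to a separate culture or animal, so the p-values reflect no more than the variation among these libraries, some or all of which may be technical. The number of calls by limma was 77 to 131 when 1 library was left out. On the recovered whole reads, edgeR called 156 genes (1.26%) and DESeq2 455 (3.67%). By limma, calls numbered 94, 83 and 82 without scNT replicates 1, 3 and 4, and 79, 77, 101 and 82 without IVF replicates 1 to 4.

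Most genes were bounded to a difference under 2-fold between these scNT and IVF libraries. Like the p-values, the intervals reflect no more than the variation among these libraries. For 9167 genes (74.0%) the 95% interval of the difference lay within 2-fold in either direction. The median half-width of that interval was 0.44 on the log2 scale, and its upper quartile was 0.68. A difference of at least 2-fold was measured for 560 genes, and 455 of these were not called. An unadjusted p under 0.05 was found for 1651 genes. Precision followed the level of the gene. The 988 genes with a mean under 20 normalized counts had a median half-width of 1.01, and 0.709% of them were called. The 4935 genes between 100 and 500 had a half-width of 0.39, with 38 called higher and 36 lower, and the 736 genes at 2000 or more had 0.32, with 0.679% called. At the edge of the selection, 278 genes reached 10 in exactly 4 libraries with a median level of 10.8, and 319 genes reached it in exactly 3 libraries with a median level of 9.04 and were not tested. The 8136 genes left out had a median level of 0.738, and 11172 of the tested genes were at 10 or more in all 8 libraries.

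**Figure D2:**
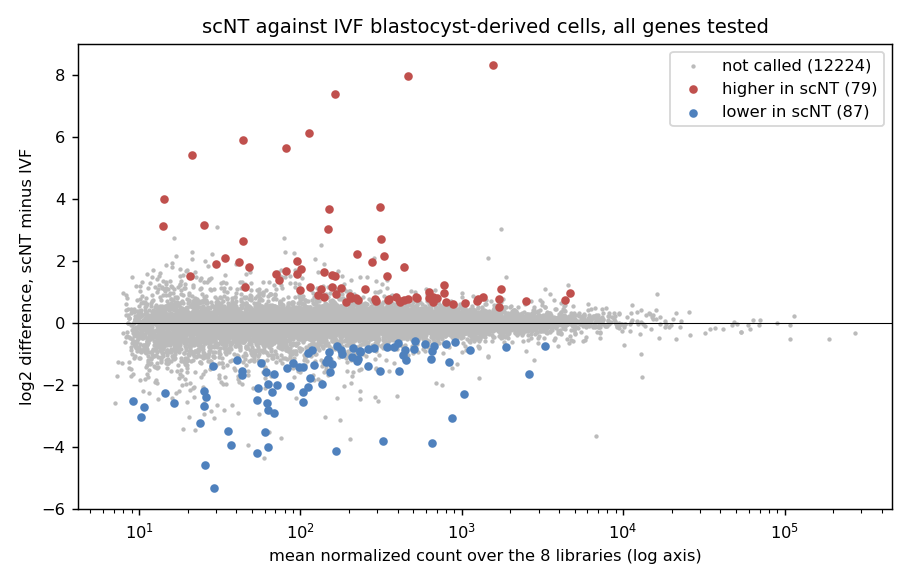
Difference between scNT and IVF blastocyst-derived cells (log2, vertical axis) against the mean normalized count over the 8 libraries (log axis) for the 12390 genes tested. The 79 genes called higher in scNT cells (red) and the 87 called lower (blue) have means between 9.2 and 4694, and the largest positive differences reach further from 0 than the largest negative ones.

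The 12 genes whose fitted difference was at least 16-fold comprised 7 higher and 5 lower in scNT derived cells. The largest difference belonged to ENSBTAG00000000198. It had 5664.4, 1928.4, 3039.0 and 1898.8 normalized counts in scNT derived cells, against 4.5, 3.7, 13.7 and 15.1 in IVF derived cells. The lowest scNT library was more than 100 times above the highest IVF library. The log2 difference was 8.32 ± 0.49 (SE, 95% interval 7.22 to 9.41; limma, Benjamini-Hochberg adjusted p = 5.47e-05, n = 4 each). The gene was listed at 0 in all fibroblast and oocyte libraries. Morulae had 10.8 ± 6.74 in scNT and 11.9 ± 8.76 in IVF embryos (SD, n = 3 and 4), so the high level was measured in scNT derived cells and not in the embryos of either method.

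The gene ENSBTAG00000022971 showed the same contrast at a lower level. It had 1443.2, 918.7, 810.5 and 515.0 normalized counts in scNT derived cells, against 2.3, 0.9, 4.2 and 3.5 in IVF derived cells. The lowest scNT library stood above 500 and the highest IVF library under 5. The log2 difference was 7.95 ± 0.38 (SE, 95% interval 7.12 to 8.79; limma adjusted p = 5.06e-06, n = 4 each). This gene was also listed at 0 in all fibroblast and oocyte libraries. In the fibroblast libraries numbered 2 to 4 a listed 0 allows a level of up to 2.09 to 2.45 normalized counts, which is 3 reads, and in the oocyte libraries up to 1.55 to 2.65. Reads were PCR products, and these limits cover counting error only.

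Among the lower genes, ENSBTAG00000024611 had 3.4, 0.9, 5.9 and 1.9 normalized counts in scNT derived cells, against 37.1, 15.8, 117.4 and 251.2 in IVF derived cells. The IVF libraries did not overlap the scNT ones but spread widely among themselves, with replicates 3 and 4 above replicates 1 and 2. The log2 difference was -4.20 ± 0.78 (SE, 95% interval -5.94 to -2.46; limma adjusted p = 0.0329, n = 4 each). The call was not stable. Leaving out any single library other than IVF replicate 2 gave an adjusted p of 0.0553 to 0.0968, and a pseudocount of 5 in place of 1 gave a difference of -3.21 with an adjusted p of 0.0557 (limma).

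The gene ENSBTAG00000010716 had 19.8, 8.3, 56.4 and 5.7 normalized counts in scNT derived cells, against 204.8, 172.6, 433.6 and 436.5 in IVF derived cells. The lowest IVF library was above the highest scNT library, and IVF replicates 3 and 4 were again the highest. The log2 difference was -4.12 ± 0.64 (SE, 95% interval -5.55 to -2.69; limma adjusted p = 0.0186, n = 4 each). Without IVF replicate 3 or 4 the adjusted p was 0.0503 or 0.0541 (limma), with a difference of -3.92 in both cases. Oocytes had 131 ± 37.5 and fibroblasts 3.8 ± 1.29 normalized counts of this gene (SD, n = 4 each).

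**Figure D3:**
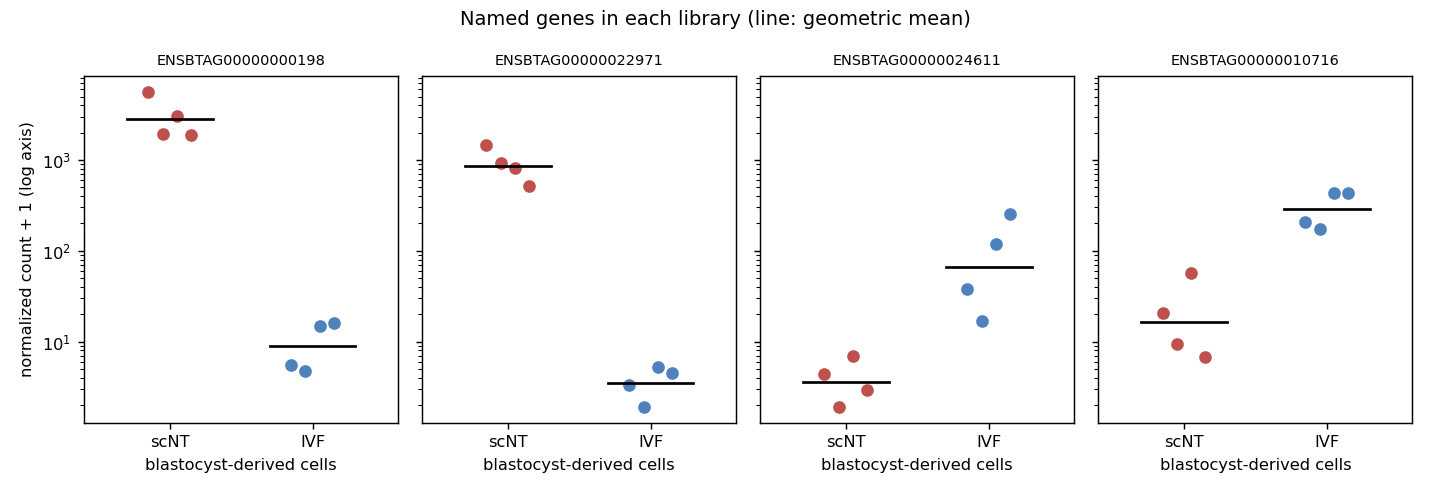
Normalized count + 1 (log axis) of 4 genes in each blastocyst-derived cell library, with scNT libraries left and IVF libraries right and a line at the geometric mean of each group. The 2 genes with the largest positive differences lie above 500 in every scNT library and under 20 in every IVF library, and the 2 lower genes show the opposite order with a wider spread.

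A presence and absence pattern, at 10 or more in every library of one method and at 1 or less in every library of the other, was found for 1 gene in each direction. Both genes were chosen by their measured values. The gene ENSBTAG00000006060 had 53.3, 28.5, 52.9 and 36.2 normalized counts in scNT derived cells and was at 0 in all 4 IVF libraries. Against the 3.20 normalized counts that 3 reads amount to on average in the IVF libraries, its scNT mean of 42.7 was 13.3-fold higher. This bound rests on means and leaves out the spread between the scNT libraries. With this gene at that bound, 6 and not 7 higher genes differed at least 16-fold, and the medians given for higher genes were the same. It was also present in scNT embryos, at a mean of 21.0 in scNT and 2.35 in IVF blastocysts and of 23.7 in scNT and 0.80 in IVF morulae, while fibroblasts had 0.80. The gene ENSBTAG00000034077 had 0.9, 0.9, 0 and 0 normalized counts in scNT derived cells, against 45.0, 30.6, 77.2 and 79.9 in IVF derived cells. Its means were 8.35 in scNT and 61.2 in IVF blastocysts, 8.93 in scNT and 32.7 in IVF morulae, and 13.0 in fibroblasts. For this pair of genes the contrast was thus in the same direction in derived cells, blastocysts and morulae.

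The blastocyst is the stage from which the cells were derived, and the same 12390 genes were compared between scNT and IVF blastocysts, which share no library with the derived cells. Blastocysts differed in 658 genes (5.31%), 289 higher (2.33%) and 369 lower (2.98%) in scNT embryos (limma, Benjamini-Hochberg, n = 4 each), and 2538 genes had an unadjusted p under 0.05. A total of 36 genes were called in the same direction at both stages, 23 higher and 13 lower in scNT. They were 21.7% of the genes called in derived cells and 5.47% of those called in blastocysts. The count was 24 to 38 when 1 library of either stage was left out, 34 with equal library totals, 38 with edgeR and 81 with DESeq2. The blastocyst calls themselves depended on single libraries. They numbered 330, 351 and 331 without scNT blastocyst replicates 1, 3 and 4, and 261 and 329 without IVF blastocyst replicates 2 and 3.

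The 36 genes had differences of similar size at the 2 stages. The 23 higher genes had a median log2 difference of 2.17 in derived cells and 1.83 in blastocysts, and the 13 lower genes -1.65 and -1.55. In single libraries the median log2 level of the 23 higher genes was 7.45, 7.56, 8.00 and 7.59 in scNT derived cells, against 5.25, 5.10, 5.17 and 4.52 in IVF derived cells. In blastocysts it was 7.45, 7.05, 7.53 and 7.62 in scNT, against 5.18, 4.67, 5.19 and 5.2 in IVF. The methods were separated by about the same distance at both stages. The choice of the genes fixed the direction, and a call at both stages also kept small differences out. The smallest difference of a higher gene was 0.83 in derived cells and 0.57 in blastocysts, and that of a lower gene 0.60 and 0.64 in size. The similar sizes are thus partly a product of the choice. The 13 lower genes had medians of 5.71, 5.40, 5.48 and 5.18 in scNT derived cells, against 7.68, 7.81, 7.71 and 7.59 in IVF derived cells. Of the 36 genes, 20 higher and 8 lower differed at least 2-fold at both stages. The test of the difference between the stages called 0 of them (limma interaction term, Benjamini-Hochberg), which does not show that the differences were equal.

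**Figure D4:**
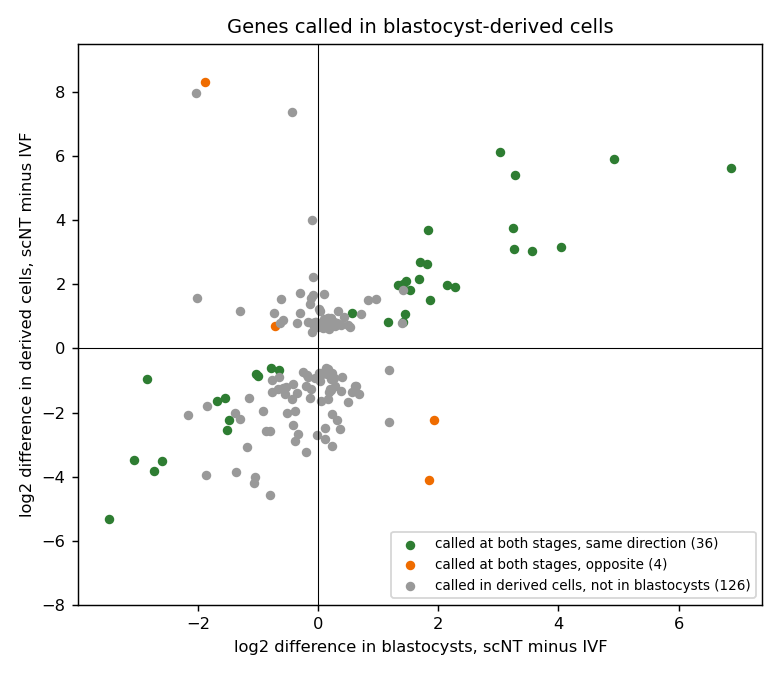
Difference between scNT and IVF (log2) in blastocyst-derived cells, vertical axis, against the same difference in blastocysts, horizontal axis, for the 166 genes called in derived cells. Genes called in the same direction at both stages (green, 36) lie in the upper right and lower left, 4 genes called in opposite directions are orange, and the 126 genes not called in blastocysts (grey) spread along the vertical axis.

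Earlier embryos took no part in choosing the 36 genes. In morulae (3 scNT and 4 IVF libraries) 22 of the 23 higher genes were higher in scNT, 20 of them at least 2-fold, with a median log2 difference of 1.56. Limma called 18 of these 23 genes higher in scNT morulae, where 7.82% of all 12390 genes were called higher. Of the 13 lower genes 9 were lower in scNT morulae, with a median of -1.10, and 5 were called lower, where 9.54% of all genes were. No gene of the 36 was called in the opposite direction in morulae. The median log2 level of the 23 higher genes was 6.29, 6.48 and 5.58 in scNT morulae, against 4.92, 4.34, 5.26 and 3.96 in IVF morulae, so the libraries of the 2 methods did not overlap. For the 13 lower genes it was 5.44, 4.63 and 4.82 in scNT morulae, against 5.66, 5.41, 5.49 and 5.27 in IVF morulae, and scNT replicate 2 lay within the IVF range. The 23 calls in morulae became 12 without IVF morula replicate 2, and were 17 to 24 without any other single morula library.

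At the 2-cell and 8-cell stages the 36 genes were not called. The 23 higher genes had median log2 differences of 0.00 at the 2-cell and 0.17 at the 8-cell stage, with 11 and 13 of them higher in scNT embryos. The 13 lower genes had medians of -0.20 and -0.23, with 8 of them lower in scNT embryos at each of these stages, against 9 in morulae. Their median log2 level at the 8-cell stage was 3.72 in scNT and 4.32 in IVF embryos, and in morulae 5.02 and 5.19. The gap between these medians was no smaller at the 8-cell stage. Gene by gene, however, the median difference was -0.23 at the 8-cell stage and -1.10 in morulae, with 3 and 7 of the 13 at least 2-fold lower in scNT. Limma called 0 of the 36 genes at the 2-cell or the 8-cell stage. Of all 12390 genes it called 4 higher (0.0323%) and 0 lower (0%) at the 2-cell stage, with 402 at an unadjusted p under 0.05, and 0 in either direction at the 8-cell stage, with 1493. The main activation of the bovine embryonic genome takes place around the 8-cell stage, and messages stored in the oocyte are cleared over the same period. Among the 79 genes called higher in derived cells, 39 were higher in scNT embryos at the 2-cell, 41 at the 8-cell, 53 at the morula and 53 at the blastocyst stage. Among the 87 called lower, 40, 36, 61 and 51 were lower in scNT embryos at those stages. Over all genes with a positive difference in derived cells, 54.3%, 54.8%, 59.7% and 55.1% were higher in scNT embryos, and over all with a negative difference 49.4%, 45.4%, 46.9% and 56.7% were lower.

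**Figure D5:**
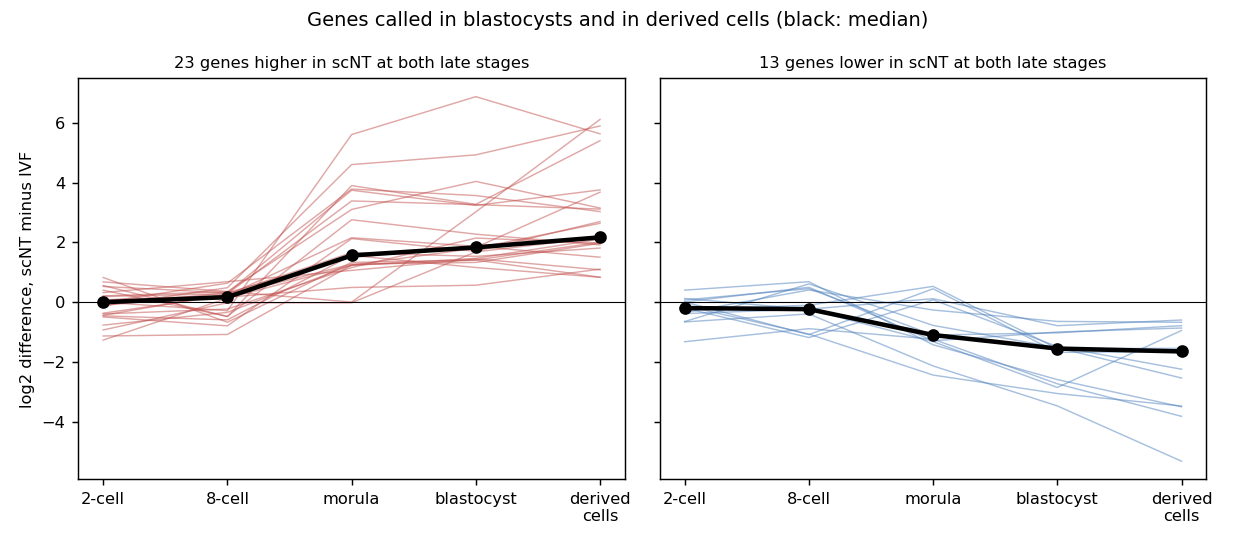
Difference between scNT and IVF (log2) from the 2-cell stage to blastocyst-derived cells for the 23 genes called higher in scNT (left) and the 13 called lower (right) in both blastocysts and derived cells. Thin lines are genes and the black line is the median, which for the higher genes stands at 0.00 and 0.17 in 2-cell and 8-cell embryos and at 1.56, 1.83 and 2.17 in morulae, blastocysts and derived cells. The higher genes had low median log2 levels of 2.79 to 3.84 in 2-cell and 8-cell embryos, where differences come out too small.

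The donor cell type was used to ask on which side of the contrast its own levels lay. The fibroblast mean was nearer to the scNT than to the IVF derived cells for 23 of the 36 genes called at both stages (63.9%), namely 13 of the 23 higher and 10 of the 13 lower genes. It was so for 66 of the other 130 called genes (50.8%) and for 6154 of all genes tested (49.7%). Among the other 130 genes this held for 18 of 56 higher and 48 of 74 lower genes. Leaving out a fibroblast library gave 21 to 24 of the 36. Fibroblast replicate 3 stood apart from the rest of its group, with a median log2 level of the 13 lower genes of 6.41, against 2.00, 2.38 and 1.72 in the other fibroblast libraries, and the count without it was 24.

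The remaining genes called in derived cells, 54 higher and 72 lower, were not called in blastocysts, and 4 genes were called in opposite directions at the 2 stages. A gene called at one stage only is not shown to differ between the stages, so the scNT minus IVF difference in derived cells was tested against that in blastocysts. This interaction was called for 186 genes (1.5%), with a more positive difference in derived cells for 104 (0.839%) and a more negative one for 82 (0.662%; limma, Benjamini-Hochberg, 16 libraries). Of the genes called in derived cells, 16 of the 79 higher and 26 of the 87 lower were among them. For the other 63 higher and 61 lower genes a difference between the stages was not shown. Of the 104 genes with a more positive difference, 60 were called in blastocysts only and 28 at neither stage, and of the 82 with a more negative one, 38 and 18. The number of such genes was 108 without scNT derived-cell replicate 3, 86 and 111 without scNT blastocyst replicates 1 and 4, and 97 and 115 without IVF blastocyst replicates 2 and 3.

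The genes with the smallest adjusted p in this test were ENSBTAG00000000198 and ENSBTAG00000022971, described above. In blastocysts ENSBTAG00000000198 had 3.3, 6.2, 4.6 and 2.5 normalized counts in scNT embryos, against 9.3, 16.3, 27.9 and 20.6 in IVF embryos. The blastocyst groups did not overlap either, and the order was the reverse of that in derived cells (log2 difference -1.88 ± 0.45, SE; limma adjusted p = 0.0282). The values of the scNT blastocysts were levels of a few reads. The difference between the stages was 10.20 ± 0.63 (SE; limma adjusted p = 2.69e-08). In blastocysts ENSBTAG00000022971 had 0, 0, 0 and 1.3 normalized counts in scNT embryos, against 7.4, 4.1, 1.3 and 5.6 in IVF embryos, levels of a few reads (log2 difference -2.04; limma adjusted p = 0.0773). Its difference between the stages was 9.99 ± 0.69 (SE; limma adjusted p = 7.11e-08).

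The gene ENSBTAG00000000897 was abundant at both stages. It had 429.5, 496.1, 583.8 and 471.1 normalized counts in scNT derived cells, against 1283.8, 1090.5, 1192.8 and 1132.3 in IVF derived cells. The groups were far apart and each was narrow (log2 difference -1.25 ± 0.13, SE; limma adjusted p = 0.000754). In blastocysts it had 6040.5, 4892.0, 5008.6 and 6067.4 in scNT embryos, against 4555.3, 4710.5, 5184.8 and 4594.2 in IVF embryos, and the groups overlapped (0.20 ± 0.12, SE; limma adjusted p = 0.349). The difference between the stages was -1.45 ± 0.16 (SE; limma adjusted p = 0.000105). Oocytes had 9126 ± 1364 and fibroblasts 97.9 ± 119 normalized counts of this gene (SD, n = 4 each).

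The 4 genes called in opposite directions comprised a pair that was higher in scNT derived cells and lower in scNT blastocysts, and a pair that was lower and then higher. Along with ENSBTAG00000000198, ENSBTAG00000012885 formed the first pair. It averaged 817 ± 129 in scNT and 502 ± 45.4 in IVF derived cells (log2 difference 0.69; limma adjusted p = 0.0430), and 640 ± 124 in scNT and 1041 ± 80.6 in IVF blastocysts (-0.72; limma adjusted p = 0.0121; SD, n = 4 each). ENSBTAG00000010716 belonged to the second pair. In blastocysts it had 29.8, 31.0, 26.1 and 31.8 normalized counts in scNT embryos, against 7.4, 4.1, 7.6 and 13.1 in IVF embryos (1.85 ± 0.37, SE; limma adjusted p = 0.0121). Its difference between the stages was -5.97 ± 0.74 (SE; limma adjusted p = 0.000381). ENSBTAG00000009132 averaged 25.8 ± 16.4 in scNT and 108 ± 32.5 in IVF derived cells (-2.22; limma adjusted p = 0.0468), and 25.9 ± 5.02 in scNT and 7.08 ± 4.64 in IVF blastocysts (1.92; limma adjusted p = 0.0280; SD, n = 4 each). In the second pair the scNT means of the 2 stages were close to each other, and the IVF means were far apart. All 4 genes were called in the test of the difference between stages (limma adjusted p at most 0.00397).

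Genes were also grouped into 6 classes, 4 of them defined by fibroblasts or oocytes against blastocysts and 2 by the mean of all 8 derived-cell libraries against blastocysts. Each class was called in a small share, and the median difference lay within 0.05 of 0 on the log2 scale in all of them but one. Fibroblast-high genes, at least 4-fold higher in fibroblasts than in the mean of all 8 blastocyst libraries, numbered 1489. Of these 12 were called higher and 16 lower in scNT derived cells (1.88%), and their median log2 difference was -0.01. Their mean log2 level was 6.85, 6.61, 6.89 and 7.04 in scNT derived cells, against 6.56, 6.61, 7.23 and 7.13 in IVF derived cells. The groups overlapped, and IVF replicates 3 and 4 were the highest of the 8. The 1509 fibroblast-low genes, defined in the opposite direction, had 14 called higher and 29 lower (2.85%), with a median of -0.04.

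Oocyte-high genes, at least 4-fold higher in oocytes than in blastocysts, numbered 1845, with 8 called higher and 27 lower (1.90%) and a median of -0.02. The 2747 oocyte-low genes had 34 called higher and 24 lower (2.11%), with the same median of -0.02. A mean of all 8 derived-cell libraries at least 4-fold above blastocysts defined a class of 1679 genes. Of these, 17 were called higher and 29 lower (2.74%), with a median of 0.00. A gene could enter this class through a single method, as ENSBTAG00000000198 did. The share called in it was therefore not independent of the contrast. Of the 569 genes at least 4-fold below blastocysts in the same mean, 1.93% were called. Their median difference was -0.22, the furthest from 0 of the 6 classes. A gene could enter this class through a single method too, so its share called and its differences were not independent of the contrast either. The mean log2 level of these 569 genes was 5.40, 5.65, 5.69 and 5.68 in scNT derived cells, against 6.04, 5.91, 5.91 and 5.65 in IVF derived cells, and the groups overlapped. The share called was above the 1.34% of all genes in each of the 6 classes, which were all chosen for large differences between cell types or stages.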

How the data were processed

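The authors deposited a signal table of normalized counts, 1 value for each gene in each library. It was made with FastQC, MultiQC, STAR and DESeq2 on genome build UMD3.1, per the submitters' processing notes. Tool versions, annotation and counting method were not given in the sources used here. Per the labels' protocols, the long RNA fraction was amplified in several rounds of PCR. In each derived-cell library at least 99.99% of values above 0 were whole multiples of 1 step (tolerance 0.051), against at most 11.9% by chance, and these whole reads were used for edgeR 4.0.16, which called 156 genes, and DESeq2 1.42.0, which called 455.

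Groups came from sample titles. Genes at 10 or more in at least 4 of the 8 derived-cell libraries were tested with limma 3.58.1 (trend, robust; R 4.3.3) on log2(value + 1), two-sided, with Benjamini-Hochberg adjustment over 12390 genes. Only the groups compared entered a fit, without a replicate block. Differences are scNT minus IVF on this log2 scale, where folds of genes with low counts come out too small. No pair of replicates differed by as little as sampling noise (lowest chi-square per degree of freedom 6.67 over 24 pairs of derived-cell and blastocyst libraries). Named genes of the derived-cell comparison were called ones whose mean over the 8 libraries reached 50 and whose groups did not overlap. The first 2 in each direction by size were taken. For the difference between stages they were called genes whose mean over the 16 libraries reached 50, without a rule on overlap. Here the first 2 in each direction by adjusted p were taken. Other genes were named after their values were seen. The comparison, the lists and the rules were chosen with earlier results of these data known. The 11 lists of named genes could not be used, as no identifier was paired with a name. Alternatives covered pseudocount, filter, scaling, tool, block and leaving out libraries.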

Additional observations from a re-analysis of the deposited data

Results flagged for a closer look

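Several values stood out by a fixed rule. Within a group of 4 libraries, the gap between an extreme library and its nearest neighbour was compared with the group's whole range, and ratios above Dixon's critical value for 4 samples at the 95% level were noted. Chance alone gives about 1 in 20 of the 38 groups examined. In scNT blastocysts ENSBTAG00000022971 had a ratio of 1.00, since 3 libraries were at 0 and 1 at 1.3 normalized counts. The recovered reads of the IVF derived-cell libraries had a ratio of 0.838, with replicate 2 at 9342097 reads above the others. The number of genes at 10 or more in the same group had a ratio of 0.857, with replicate 3 at 12645 genes above the others. In scNT derived cells the mean log2 level of genes lower in derived cells than in blastocysts had a ratio of 0.852, with 1 library apart from the other 3.

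The scNT minus IVF difference differed between derived cells and blastocysts by the interaction test in 186 genes. On the log2 scale the change between stages was 10.20 for ENSBTAG00000000198 and 9.99 for ENSBTAG00000022971, both more positive in derived cells. It was -5.97 for ENSBTAG00000010716 and -1.45 for ENSBTAG00000000897, both more negative in derived cells. The calls of these 4 genes were kept in every fit with 1 of the 16 libraries left out.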

How the results depend on the processing

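The 166 calls in derived cells stayed within 1.5 times under other pseudocounts, filters and scalings and with edgeR (156), but numbered 455 with DESeq2, of which 165 were among the 166. With 1 library left out they numbered 77 to 131. A fit over all 12 groups also called 166 genes, 60 higher and 106 lower, of which only 73 were shared. Same-numbered scNT and IVF derived-cell libraries correlated at 0.078, 0.426, 0.016 and 0.288 in their deviations from group means. Replicates 1, 2 and 4 of scNT correlated best with the IVF library of their own number, and replicate 3 with IVF replicate 1 (0.136). The numbers were not taken as pairs in the main fit. Whether same-numbered libraries shared a source of variation was not tested. With a replicate block the calls numbered 302 in derived cells, 281 between stages and 56 at both stages in the same direction. The median of all genes was -0.0165 without a filter, 0.0169 with equal library totals and -0.0185 to 0.0097 with 1 library left out. Blastocyst calls were 297 without limma's trend and robust options and 261 to 782 with 1 library left out. With equal library totals they split into 139 higher and 783 lower around a median of -0.16 over all genes, and the calls between stages became 316, 267 higher and 49 lower, around a median of 0.17. Calls between stages ranged from 86 to 208 with 1 library left out. The 36 genes called at both stages became 81 with DESeq2 and 24 to 38 with 1 library left out, and the 23 of them called in morulae 12 to 24. Present or absent genes numbered 7 in scNT and 9 in IVF derived cells at limits of 5 and 2, and 0 in IVF derived cells at limits of 20 and 0.5. With 1 library left out they were 1 to 1 and 1 to 3. The median standard deviation between IVF libraries was 0.248 with a pseudocount of 5, 0.226 with a filter of 50 and 0.238 to 0.254 with 1 library left out, and that between scNT libraries 0.188 to 0.299. The cause of these changes was not tested. The call of ENSBTAG00000024611 was also lost without limma's trend and robust options (adjusted p = 0.0541). No named gene changed direction. The median of all genes, near 0, changed sign as given above, and the larger side of the split changed too, with 48 higher and 34 lower derived-cell calls without IVF replicate 4 and 433 higher and 349 lower blastocyst calls without IVF blastocyst replicate 4. At this depth, differences of genes under 20 normalized counts were bounded only to about 2-fold.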
